A study of Homo sapiens with 12 samples.

Results

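Respiratory complexes II to V are followed here through 44 of their subunit genes in 2 human gastric cancer cell lines, with and without cantharidin sodium. The members were taken by name, as the rows whose Ensembl identifier maps to a listed symbol, and all 44 were found among the 32269 genes of the count table. They comprise 4 genes of complex II, 10 of complex III, 13 of complex IV and 17 of complex V. Of these, 38 lie in the nuclear genome and 6 in the mitochondrial genome. The rule goes by name and uses no measured value, though the set was chosen with earlier results of these data known.

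Complexes II, III and IV are enzymes of the inner mitochondrial membrane that pass electrons to oxygen. Complex II, succinate dehydrogenase, is also an enzyme of the citric acid cycle, complex III hands electrons from ubiquinol to cytochrome c, and complex IV passes them to oxygen. Complexes III and IV pump protons, and complex V, the ATP synthase, lets protons flow back and makes ATP. Complex II is encoded by nuclear genes alone, while complexes III, IV and V each join nuclear subunits with subunits made inside mitochondria from mitochondrial DNA.

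The study measured mRNA by sequencing in 12 libraries, 3 in each of 4 groups, and the submitters describe the 3 as biological replicates. The groups were AGS cells treated with cantharidin sodium, AGS cells left untreated, MKN1 cells treated with cantharidin sodium, and MKN1 cells left untreated. Cantharidin sodium is a salt derived from cantharidin, a blister beetle toxin that inhibits serine/threonine protein phosphatases, and the sources used here give no dose or duration. AGS is labelled as a gastric adenocarcinoma epithelial line and MKN1 as a gastric adenosquamous carcinoma line, and the genotype of both is labelled WT. Both are established cell lines, so each group stands for 1 line and not for a set of tumours.

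Totals lay between 28604966 and 51604215 counts a library, and the lowest count of a member in a library was 378. Simple epithelium markers (EPCAM, CDH1, KRT8, KRT18, KRT19 and CLDN4) summed to 4108 to 6625 CPM over the 12 libraries, where CPM is the count scaled by library total and TMM factor. The squamous keratin KRT5 reached 544 ± 93.5 CPM in treated and 429 ± 43.9 CPM in untreated MKN1 cells (SD, n = 3 each). In AGS it was below 0.2 CPM in every library. The 6 squamous markers (TP63, KRT5, KRT14, KRT6A, SFN and DSG3) summed to 90.2 to 107 CPM in treated and 160 to 198 CPM in untreated AGS libraries, without overlap. Nearly all of that sum was SFN, the stratifin gene, at 97.0 ± 8.47 CPM in treated and 181 ± 19.4 CPM in untreated AGS cells (SD, n = 3 each). Over MKN1 libraries the sum was 2236 to 3124 CPM in treated and 1588 to 3148 CPM in untreated cells. The part of these markers in the results was not tested. CLDN4 was low in MKN1, at 8.73 ± 1.05 CPM in treated and 12.6 ± 6.37 CPM in untreated cells (SD, n = 3 each). Markers of fibroblasts, endothelium and blood summed to 3.27 to 4.00 CPM in treated and 11.2 to 21.9 CPM in untreated AGS libraries. Genes of this list went both ways in AGS, with 2 of the 9 tested lower and 3 higher (edgeR quasi-likelihood test, adjusted p below 0.05). Those called were HBB and VWF, lower, and COL1A2, COL3A1 and CD68, higher, beside 11.6% and 9.21% of all tested genes. The same list summed to 69.7 to 125 CPM in treated and 124 to 181 CPM in untreated MKN1 libraries, and its part in the results was not tested. One library stood apart, since untreated MKN1 replicate 3 correlated with the other untreated MKN1 libraries at 0.970 and 0.972 over genes, against 0.985 between those 2. Counts of members called in the comparisons that use it are also given without it, with examples of calls that changed.

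In AGS cells, 25 of the 38 nuclear subunit genes were lower after treatment, most of them in complexes III, IV and V, and the mitochondrially encoded ones were not called. Of the 44 members, 25 fell and 0 rose, all 25 of them among the 38 nuclear genes (edgeR quasi-likelihood test, adjusted p below 0.05 over the 20280 genes tested). Over all tested genes 11.6% were lower and 9.21% higher in this comparison. The median log2 fold change, treated over untreated, was -0.40 over the members, -0.44 over the nuclear ones and -0.12 over the mitochondrial ones, beside -0.01 over all tested genes. In 33 members every treated AGS library lay below every untreated one, which held for 26.8% of all tested genes. In 1 member, MT-CO1, every treated library lay above, which held for 5186 of the 20280 tested genes.

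Medians of the nuclear members lay close together in complexes III, IV and V. Of these nuclear members, 7 of 9 fell in complex III (median log2 fold change -0.46), 7 of 10 in complex IV (-0.47) and 10 of 15 in complex V (-0.50). In complex II 1 of 4 fell, with a median of -0.13. No test compared the complexes with each other. Many nuclear members have short transcripts: 15 of 21 members with a transcript under 1000 bases fell, as did 10 of 17 with a longer one. Over the 3599 tested genes with a transcript under 1000 bases, 9.67% were lower and the median log2 fold change was 0.03. In bulk RNA, less RNA of a kind per cell and fewer cells that hold it cannot be told apart.

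The number of members lower in AGS depended on single libraries. It was 7 without treated AGS replicate 2 and also 7 without untreated AGS replicate 3, 13 without untreated AGS replicate 1 and 14 without treated AGS replicate 3. Over all tested genes the share lower also fell in these fits, to 5.83%, 5.72%, 7.11% and 6.55% in the same order. The direction of the called members held in all of them. UQCRC1, UQCRH, COX6B1, COX8A, ATP5F1A and ATP5MG, 6 members in all, were called lower in AGS in each of the 24 fits made.

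**Figure D1:**
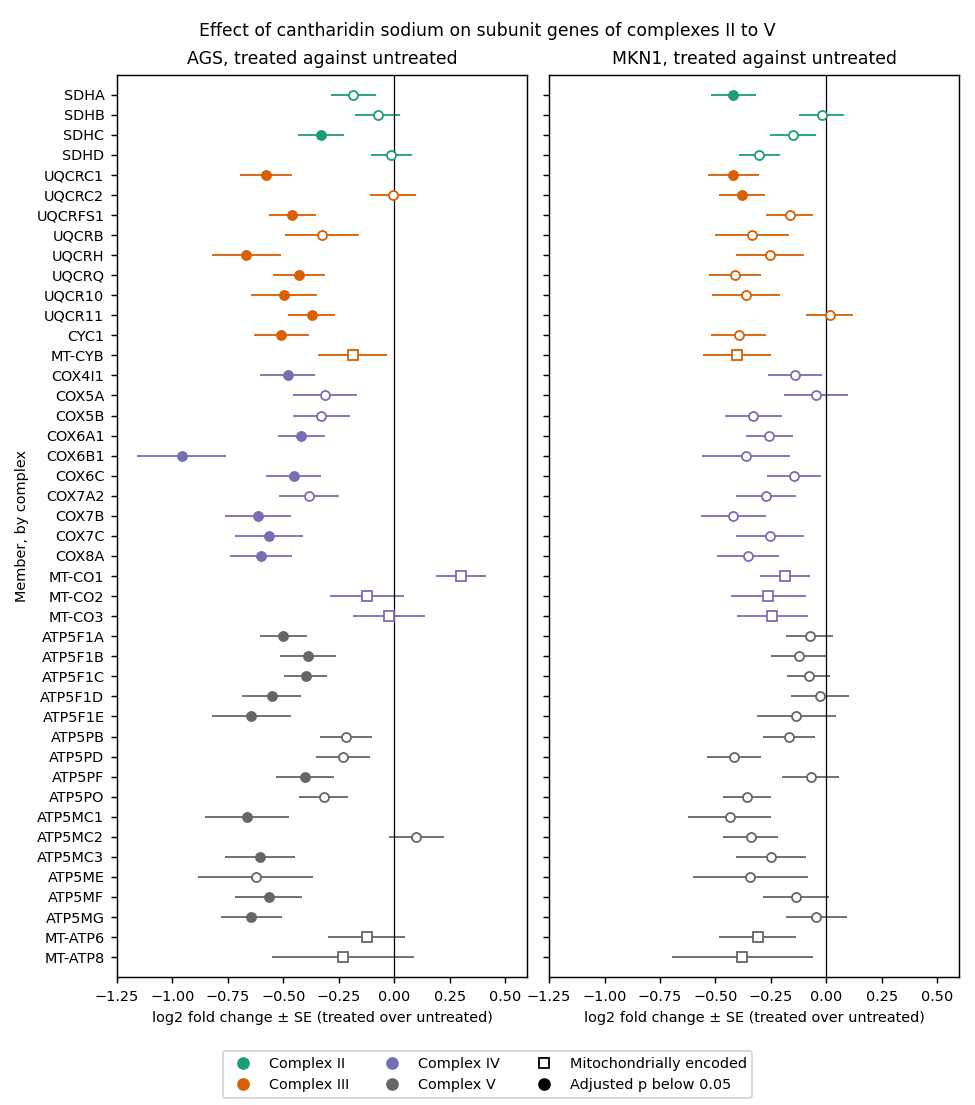
Log2 fold change with SE (x axis, treated over untreated) of each of the 44 members (rows, by complex) in AGS cells (left) and MKN1 cells (right), from 3 libraries a group. Filled symbols passed an adjusted p of 0.05, 25 in AGS and 3 in MKN1, and squares are mitochondrially encoded members; almost all points lie left of 0.

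In MKN1 cells, 3 of the 44 members fell and 0 rose, where 3.9% of all tested genes were lower and 2.8% higher (edgeR, adjusted p below 0.05). The 3 were SDHA of complex II and UQCRC1 and UQCRC2 of complex III. A negative log2 fold change was measured for 43 of the 44 members, with a median of -0.26, beside 0.01 over all tested genes. The median was -0.26 over the nuclear members and -0.29 over the mitochondrial ones, so the gap between them seen in AGS was not seen here. By complex, the median over nuclear members was -0.23 for complex II, -0.36 for complex III, -0.26 for complex IV and -0.14 for complex V. In 13 members every treated MKN1 library lay below every untreated one, beside 11.4% of all tested genes.

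Treated MKN1 replicate 2 was the lowest library of the line. Set against the mean of untreated MKN1 libraries, the median of the nuclear members was -0.16, -0.53 and -0.13 (log2) in treated libraries 1 to 3 and -0.10, 0.10 and -0.03 in untreated ones. The number of members called lower was 8 without untreated MKN1 replicate 3, the library that stood apart, where 7.6% of all tested genes were lower. It was 0 without treated MKN1 replicate 2, where 1.87% were. It was 0 or 1 without any 1 of the other libraries except treated MKN1 replicates 1 and 3, without which it was 4 and 3.

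**Figure D2:**
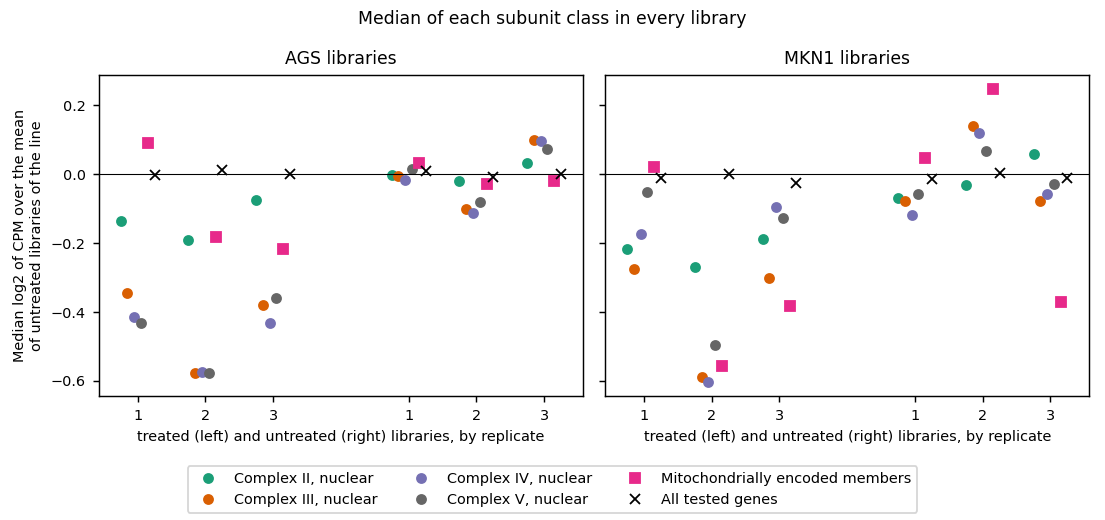
Median over the members of each class of the log2 ratio of CPM to the mean of the line's untreated libraries (y axis), for each library (x axis), AGS left and MKN1 right. In AGS the treated libraries lie below the untreated ones for nuclear subunits of complexes III, IV and V; in MKN1 treated replicate 2 lies lowest.

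The difference between the effects, MKN1 minus AGS, was tested for each member. An unadjusted p below 0.05 was found for 9 of the 44, beside 6312 of the 20280 tested genes (edgeR). None of the 44 passed in either direction (edgeR, adjusted p below 0.05). Of all tested genes, 7.3% were lower and 8.38% higher in MKN1 relative to AGS. The count of members called depended on the fit. Without treated MKN1 replicate 2, 6 members were higher and 0 lower, beside 8.4% and 7.6% of all tested genes. Without untreated MKN1 replicate 3, 1 was lower, MT-CO1, and 0 higher, beside 10.0% and 12.2% of all tested genes. With GC and length trends removed 4 were higher and 2 lower, beside 10.3% and 9.37% of all tested genes. DESeq2 called 3 higher and 1 lower, beside 9.46% and 7.97%. The smallest adjusted p-values were those of ATP5MG (difference 0.60 ± 0.19 log2 units (SE), adjusted p = 0.052) and MT-CO1 (-0.49 ± 0.16, adjusted p = 0.055). With all 12 libraries, that 25 members passed in AGS and 3 in MKN1 therefore does not show that the lines differ, nor that they respond alike.

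Complex II had 1 of its 4 members lower in each line, and not the same one. SDHA, the flavoprotein that oxidises succinate (ENSG00000073578, chr5:218241-256700, plus strand, GRCh38), stood at 204, 165 and 194 CPM in treated MKN1 libraries, against 232, 260.4 and 259 CPM in untreated ones. Every treated library was below every untreated one, and SDHA fell with a log2 fold change of -0.42 ± 0.10 (SE; edgeR, adjusted p = 0.0303). It passed in MKN1 in 16 of the 24 fits. In AGS it had 92.6, 96.6 and 100.2 CPM in treated and 109.8, 110.3 and 109 CPM in untreated libraries, again without overlap. The AGS change was -0.19 ± 0.10 (SE) and did not pass (edgeR, adjusted p = 0.216).

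SDHB, the iron-sulfur subunit, had 74.6, 65.9 and 74.5 CPM in treated and 74.3, 75.9 and 76.4 CPM in untreated AGS libraries. Its MKN1 values were 105, 98.2 and 121 CPM in treated and 107, 107 and 115 CPM in untreated libraries. The groups overlapped in both lines, and its log2 fold changes of -0.08 in AGS and -0.02 in MKN1 were close to 0. SDHC, a membrane anchor that binds heme together with SDHD, was the 1 complex II member to fall in AGS. It stood at 149, 148 and 150.0 CPM in treated and 188, 179 and 195 CPM in untreated AGS libraries (log2 fold change -0.33 ± 0.10 (SE); edgeR, adjusted p = 0.0413). The AGS call is close to the threshold, and SDHC passed in AGS in 14 of the 24 fits.

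In MKN1 SDHC had 136, 118 and 149 CPM in treated and 139, 147 and 162 CPM in untreated libraries, which overlapped (adjusted p = 0.422, edgeR). SDHD, the other anchor, had 83.6, 84.1 and 86.0 CPM in treated and 85.1, 82.7 and 88.1 CPM in untreated AGS libraries, at one level (-0.01 ± 0.09 log2 units (SE)). The MKN1 libraries gave 90.7, 97.9 and 85.5 CPM in treated and 118, 106 and 114 CPM in untreated libraries. These did not overlap, and the change of -0.30 ± 0.09 (SE) missed the threshold (edgeR, adjusted p = 0.0662).

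Complex III held the 1 member that fell in both lines. UQCRC1, a core subunit on the matrix side (ENSG00000010256, chr3:48599002-48610976, minus strand, GRCh38), had 90.5, 90.8 and 93.2 CPM in treated and 132, 126 and 151 CPM in untreated AGS libraries. MKN1 cells showed 102, 86.3 and 107 CPM in treated and 125, 147 and 124 CPM in untreated libraries. Neither line showed an overlap, and the log2 fold changes were -0.58 ± 0.12 in AGS and -0.42 ± 0.12 in MKN1 (SE; edgeR, adjusted p = 0.00501 and 0.0475). The MKN1 call is close to the threshold, and UQCRC1 passed in MKN1 in 9 of the 24 fits.

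UQCRC2, the partner core subunit, did not pass in AGS, with 173, 174 and 183 CPM in treated and 186, 173 and 173 CPM in untreated libraries. The groups overlapped and the log2 fold change was -0.01 ± 0.11 (SE; edgeR, adjusted p = 0.977). In MKN1 it stood at 108, 105 and 88.6 CPM in treated and 144, 124 and 125 CPM in untreated libraries, without overlap. It fell there by a log2 fold change of -0.38 ± 0.11 (SE; edgeR, adjusted p = 0.0492), and it passed in MKN1 in 8 of the 24 fits, with adjusted p up to 0.261. The difference between the lines was not significant (edgeR, adjusted p = 0.106).

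UQCRFS1, the Rieske iron-sulfur protein, had 123, 127 and 139 CPM in treated and 178, 165 and 193 CPM in untreated AGS libraries. It fell there by a log2 fold change of -0.46 ± 0.11 (SE; edgeR, adjusted p = 0.0104). Levels in MKN1 came to 127, 112 and 124 CPM in treated and 142, 143 and 122 CPM in untreated libraries, which overlapped. UQCR11, a small accessory subunit, had 39.4, 36.4 and 38.5 CPM in treated and 48.8, 46.7 and 52.5 CPM in untreated AGS libraries, and fell (-0.37 ± 0.11, adjusted p = 0.0269, edgeR). Its MKN1 libraries overlapped, at 38.0, 37.4 and 43.9 CPM in treated and 35.8, 41.9 and 40.5 CPM in untreated cells.

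CYC1, the cytochrome c1 subunit, UQCRH, the hinge protein, and the small subunits UQCRQ and UQCR10 also fell in AGS, with log2 fold changes of -0.51, -0.67, -0.43 and -0.50. UQCRB, a small ubiquinone-binding subunit, had a change of -0.33 that did not pass (edgeR, adjusted p = 0.19). In MKN1 these 5 had changes between -0.41 and -0.25, and none passed.

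Complex IV included the member with the greatest fall in AGS. COX6B1, a subunit on the intermembrane side at the interface of the enzyme dimer (ENSG00000126267, chr19:35648223-35658861, plus strand, GRCh38), had 98.4, 81.2 and 87.2 CPM in treated and 167, 159 and 192 CPM in untreated AGS libraries. Its log2 fold change was -0.96 ± 0.20 (SE; edgeR, adjusted p = 0.00645). In MKN1 it had 216, 119.6 and 211 CPM in treated and 212, 282 and 209.7 CPM in untreated libraries. The MKN1 groups overlapped, with treated replicate 2 far below the others, and the change of -0.36 ± 0.20 (SE) did not pass (edgeR, adjusted p = 0.299).

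COX8A, a small membrane subunit, had 58.2, 51.8 and 54.2 CPM in treated and 84.5, 77.1 and 87.4 CPM in untreated AGS libraries. Its MKN1 values were 75.2, 60.6 and 85.6 CPM in treated and 83.9, 111 and 87.8 CPM in untreated libraries. It fell in AGS (-0.60 ± 0.14, adjusted p = 0.0106, edgeR) and its MKN1 groups overlapped; 34.5% of its exon bases are shared with another annotated gene on the same strand. COX7B, another small membrane subunit, had 56.6, 48.7 and 59.7 CPM in treated and 87.8, 82.1 and 83.1 CPM in untreated AGS libraries. It fell there (-0.62 ± 0.15, adjusted p = 0.0125, edgeR). The MKN1 libraries gave 86.7, 54.6 and 77.0 CPM in treated and 97.9, 103 and 90.7 CPM in untreated libraries, which did not overlap but missed the threshold (edgeR, adjusted p = 0.108).

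COX5B, a zinc-binding subunit on the matrix side, had 55.8, 48.7 and 52.8 CPM in treated and 66.9, 60.7 and 69.9 CPM in untreated AGS libraries. MKN1 cells showed 77.5, 65.2 and 87.4 CPM in treated and 87.9, 111 and 90.6 CPM in untreated libraries. Neither change passed, although the groups did not overlap in either line (log2 fold change -0.33 in AGS and -0.33 in MKN1). COX4I1, the regulatory nuclear subunit, and COX6A1, COX6C and COX7C also fell in AGS, with log2 fold changes between -0.57 and -0.42. COX5A and COX7A2 did not pass (-0.31 and -0.38). In all 10 nuclear members of complex IV every treated AGS library lay below every untreated one.

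The catalytic head of complex V was lower in AGS. ATP5F1A, the alpha subunit, had 192, 191 and 223 CPM in treated and 282, 270.1 and 305 CPM in untreated AGS libraries, a log2 fold change of -0.50 ± 0.11 (SE; edgeR, adjusted p = 0.0071). Levels in MKN1 came to 433, 395 and 481 CPM in treated and 447, 456 and 477 CPM in untreated libraries, which overlapped. ATP5F1B, the beta subunit with the catalytic sites, and the central stalk genes ATP5F1C, ATP5F1D and ATP5F1E also fell in AGS, with log2 fold changes of -0.39, -0.40, -0.55 and -0.64. In MKN1 these 5 had log2 fold changes between -0.13 and -0.03, none past the threshold. The AGS call of ATP5F1B was made in 13 of the 24 fits.

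The peripheral stalk, which holds the head still against the rotor, had 1 of 4 members past the threshold in AGS. That member was ATP5PF (-0.40, adjusted p = 0.0436, edgeR), while ATP5PB had a log2 fold change of -0.22 and did not pass. The AGS call of ATP5PF was made in 14 of the 24 fits. ATP5PO, the oligomycin sensitivity protein, had 103, 94.9 and 102 CPM in treated and 123, 112 and 139 CPM in untreated AGS libraries. In MKN1 it had 91.7, 78.7 and 95.2 CPM in treated and 111, 119 and 111 CPM in untreated libraries. The groups did not overlap in either line, and neither change passed (edgeR, adjusted p = 0.0545 in AGS and 0.0679 in MKN1). Both passed without untreated MKN1 replicate 3 (edgeR, adjusted p = 0.0400 in AGS and 0.0471 in MKN1). Of the 24 fits, ATP5PO passed in 9 in AGS and in 3 in MKN1.

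ATP5PD, also of the stalk, had 69.1, 61.2 and 65.0 CPM in treated and 77.5, 68.2 and 83.3 CPM in untreated AGS libraries. Its MKN1 values were 61.4, 50.9 and 52.9 CPM in treated and 69.0, 84.2 and 67.6 CPM in untreated libraries. The groups overlapped in AGS and not in MKN1, where the change of -0.42 ± 0.12 (SE) missed the threshold (edgeR, adjusted p = 0.0582). Without untreated MKN1 replicate 3 it passed (edgeR, adjusted p = 0.0244), and it passed in MKN1 in 4 of the 24 fits.

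ATP5MC1, ATP5MC2 and ATP5MC3 are separate nuclear genes for the same mature subunit c, which forms the rotor ring, and 2 of them fell in AGS while the other did not pass. ATP5MC1 had 18.6, 13.6 and 16.2 CPM in treated and 26.7, 21.1 and 28.9 CPM in untreated AGS libraries, and fell (-0.66 ± 0.19, adjusted p = 0.0263, edgeR). ATP5MC3 had 103, 88.7 and 108 CPM in treated and 153, 142 and 159.6 CPM in untreated AGS libraries, and also fell (-0.61 ± 0.16, adjusted p = 0.018, edgeR). ATP5MC2 had 53.5, 43.0 and 47.5 CPM in treated and 44.7, 42.1 and 47.5 CPM in untreated AGS libraries, which overlapped (0.10 ± 0.12, adjusted p = 0.602, edgeR). Differences between these genes were not tested. Their summed level was 175, 145 and 172 CPM in treated AGS libraries, against 225, 206 and 236 CPM in untreated ones.

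Among the small membrane subunits, ATP5MG had 98.2, 86.4 and 97.0 CPM in treated and 139.8, 145 and 156 CPM in untreated AGS libraries, and fell (-0.64 ± 0.14, adjusted p = 0.00688, edgeR). The MKN1 libraries gave 124, 95.2 and 147 CPM in treated and 121, 130.3 and 127 CPM in untreated libraries. The treated MKN1 libraries spanned the untreated ones. ATP5MF fell in AGS (-0.57), and ATP5ME had a change of -0.63 that did not pass; 61.6% of ATP5ME exon bases are shared with MYL5 on the other strand. Of the 7 members that share over 20% of their exon bases with another gene, 4 are nuclear and fell in AGS, and their counts are uncertain for that reason.

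**Figure D3:**
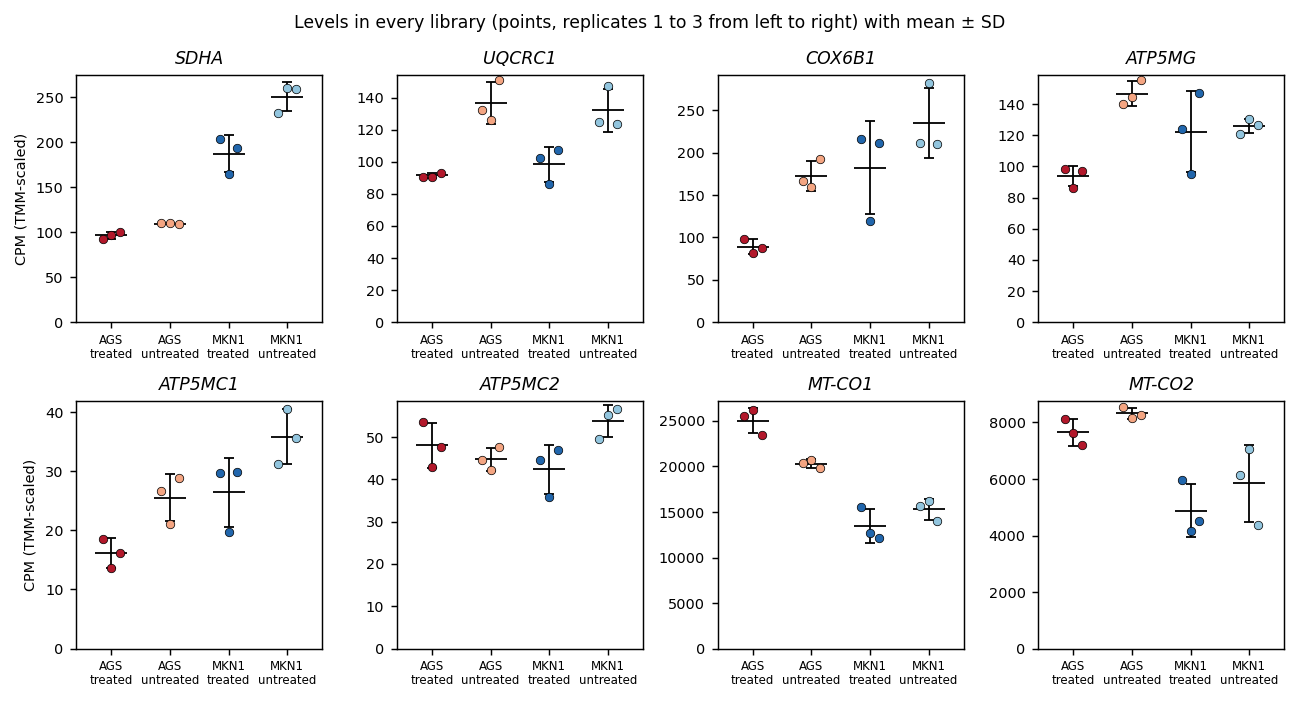
CPM (y axis, TMM-scaled, from 0) of 8 members in each library, by group (x axis), with mean and SD over 3 libraries. UQCRC1, COX6B1, ATP5MG and ATP5MC1 lie lower in treated than in untreated AGS cells, ATP5MC2 overlaps, MT-CO2 lies slightly lower and MT-CO1 higher.

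None of the 6 mitochondrially encoded members passed in either line (edgeR, adjusted p below 0.05). At an unadjusted p below 0.05 there was 1 in each line, beside 7003 of the 20280 tested genes in AGS and 4750 in MKN1 (edgeR). Without untreated MKN1 replicate 3, MT-CYB was lower in MKN1 (log2 fold change -0.53, edgeR, adjusted p = 0.0356). It passed in MKN1 in 2 of the 24 fits. DESeq2 and limma voom each called 1 higher in AGS, MT-CO1. MT-CO1, the catalytic subunit of complex IV that holds heme and copper (ENSG00000198804, chrMT:5904-7445, plus strand, GRCh38), had 25531, 26168 and 23449.5 CPM in treated and 20359, 20765 and 19827 CPM in untreated AGS libraries. Every treated AGS library was above every untreated one, with a log2 fold change of 0.30 ± 0.11 (SE; edgeR, adjusted p = 0.0744). It passed in 6 of the 24 fits, with adjusted p between 0.0094 and 0.199. MKN1 cells showed 15553, 12676 and 12126 CPM in treated and 15647, 16228 and 13997 CPM in untreated libraries, which overlapped.

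MT-CO2, which takes electrons from cytochrome c through its copper centre, had 8119, 7626 and 7194 CPM in treated and 8536, 8143 and 8277 CPM in untreated AGS libraries. Levels in MKN1 came to 5962, 4174 and 4516 CPM in treated and 6149.8, 7047 and 4359.9 CPM in untreated libraries. MT-CO2 was lower in each treated AGS library by a small amount, and the MKN1 groups overlapped. MT-CO3, the third core subunit, had 10389, 9465 and 8556 CPM in treated and 9805, 9668 and 9397 CPM in untreated AGS libraries, with overlap. In MKN1 it had 5895, 4621 and 4515 CPM in treated and 6123, 7202 and 4463 CPM in untreated libraries, also with overlap.

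MT-CYB, the cytochrome b of complex III, had 2799, 2417 and 2327 CPM in treated and 2902, 2708 and 2981 CPM in untreated AGS libraries. Its MKN1 values were 2601, 1816 and 1942 CPM in treated and 2852, 3263 and 2296 CPM in untreated libraries. The groups overlapped in both lines, with log2 fold changes of -0.19 ± 0.15 in AGS and -0.40 ± 0.15 in MKN1 (SE). MT-ATP6, the proton channel subunit a of complex V, had 4609.9, 3728 and 3765 CPM in treated and 4651, 4142 and 4394 CPM in untreated AGS libraries. The MKN1 libraries gave 2423, 1519 and 1853 CPM in treated and 2477, 2801 and 1905 CPM in untreated libraries, and the groups overlapped in both lines.

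MT-ATP8, a short membrane subunit of complex V, had 702, 344 and 362 CPM in treated and 611, 542 and 498 CPM in untreated AGS libraries. MKN1 cells showed 351, 161 and 195 CPM in treated and 334, 377 and 208 CPM in untreated libraries. It spread the most of the 6, and its SE of 0.32 log2 units in AGS was the widest. MT-ATP8 and MT-ATP6 lie on one transcript and share 46 bases, which is 22.2% of MT-ATP8, so reads there cannot be assigned to one of them. The shared stretch, chrMT:8527-8572 on the plus strand of GRCh38 (GENCODE release 29 transcripts), is shown because it carries both frames; capitals mark the start codon of MT-ATP6 and the stop codon of MT-ATP8.
MT-ATP8 and MT-ATP6: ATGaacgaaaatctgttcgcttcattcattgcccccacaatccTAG

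Mitochondrial and nuclear members were set side by side within each library. The log2 ratio of summed mitochondrial to summed nuclear CPM was 3.72, 3.78 and 3.51 in treated AGS libraries, against 3.18, 3.24 and 3.06 in untreated ones. The ratio was higher in every treated AGS library. In MKN1 it was 2.69, 2.59 and 2.22 in treated and 2.64, 2.62 and 2.27 in untreated libraries, which overlapped. MT-CO1 was also set against the other mitochondrial members: the log2 ratio of MT-CO1 to MT-CO2 was 1.65, 1.78 and 1.70 in treated AGS libraries, against 1.25, 1.35 and 1.26 in untreated ones. In MKN1 that ratio was 1.38, 1.60 and 1.42 in treated and 1.35, 1.20 and 1.68 in untreated libraries. The ratios of MT-CO1 to MT-CO3, MT-CYB and MT-ATP6 were likewise higher in every treated AGS library than in any untreated one. That to MT-ATP8 overlapped, at 5.18, 6.25 and 6.02 in treated and 5.06, 5.26 and 5.31 in untreated AGS libraries. These ratios show unequal change and not which member moved.

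Per kilobase of 1 chosen transcript, the 6 mitochondrial members ranged from 2203 to 16245 CPM in treated AGS cells and from 2510 to 13176 CPM in untreated AGS cells. The 38 nuclear members ranged from 11.0 to 315 CPM per kilobase in treated and from 13.8 to 413 in untreated AGS cells. Every mitochondrial member was thus above every nuclear one. MT-CO1 was highest per kilobase in all 4 groups, and MT-ATP8 and MT-CYB were the lowest pair of the 6.

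Nuclear loci that resemble members were listed as near-copies, and 5 of the 15 tested rose in AGS while 0 fell. Over all tested genes 9.21% were higher and 11.6% lower in that comparison. MTCO1P12, a nuclear copy of MT-CO1, had 603 ± 164 CPM in treated and 320.3 ± 28.4 CPM in untreated AGS cells (SD, n = 3 each; edgeR, adjusted p = 0.00321). MTCO2P12 and MTCO1P40 had log2 fold changes of 1.24 and 1.68, and MTCO3P12 and COX6A1P2 of 0.97 and 0.87. MTCO1P40, MTCO3P12 and COX6A1P2 are named after their values were seen, to complete the 5. The sources used here do not say how reads that match both a member and such a copy were counted, so the counts of MT-CO1 and of its copies are uncertain.

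Promoters were read for every member with an entry, whether or not it was called. No entry was used for SDHC, UQCRB, CYC1, COX6C, ATP5F1B, ATP5F1D, ATP5MC3, ATP5MF and the 6 mitochondrial members. RefSeq (GRCh38.p14) gave a promoter for 30 of the 44 members, and the 250 bases before each start were searched on both strands for motifs named for regulators of respiratory genes: GCGCANGCG for NRF1, CCGGAAG for ETS factors such as GABPA, and AAGATGGC for YY1. The NRF1 letters were in 36.7% of the 30 members and 6.56% of all 35116 promoters, the ETS letters in 36.7% and 8.52%, and the YY1 letters in 3.33% and 1.36%. At least 1 of them was in 18 of the 30 members, beside 15.1% of all promoters. The NRF1 motif was first counted with 1 more C at its end, which gave 26.7% of the members and 5.07% of all promoters, and the shorter form was taken after both counts were known. Of the 18 with a match, 10 fell in AGS and 2 in MKN1, and of the 12 without one, 8 fell in AGS and 1 in MKN1.

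The 4 promoters below are those of SDHA, lower in MKN1, of UQCRC1, lower in both lines, of COX6B1, with the greatest fall in AGS, and of SDHD, called in neither line; capitals mark motif matches. They are the 250 bases before the RefSeq start at chr5:218070-218319 (plus strand), chr3:48609647-48609896 (minus strand), chr19:35648073-35648322 (plus strand) and chr11:112086623-112086872 (plus strand), GRCh38.p14. RefSeq starts differ from the GENCODE release 29 gene positions used elsewhere in the report. By the GENCODE positions the UQCRC1 stretch lies wholly within its gene, and those of SDHA, COX6B1 and SDHD lie partly within theirs. SDHA holds the NRF1 letters 4 times and UQCRC1 2 times. COX6B1 holds the ETS letters. SDHD holds the ETS letters and 2 NRF1 matches that overlap each other on opposite strands.
SDHA: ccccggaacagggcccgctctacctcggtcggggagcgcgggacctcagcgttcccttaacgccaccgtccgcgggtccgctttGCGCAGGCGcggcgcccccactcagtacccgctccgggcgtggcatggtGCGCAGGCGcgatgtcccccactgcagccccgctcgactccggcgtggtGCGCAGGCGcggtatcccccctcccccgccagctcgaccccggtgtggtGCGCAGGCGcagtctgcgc
UQCRC1: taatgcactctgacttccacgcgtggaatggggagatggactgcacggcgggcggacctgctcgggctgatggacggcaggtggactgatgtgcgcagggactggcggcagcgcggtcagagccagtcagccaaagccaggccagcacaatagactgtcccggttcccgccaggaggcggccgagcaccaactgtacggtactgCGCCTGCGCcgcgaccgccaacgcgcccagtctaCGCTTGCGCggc
COX6B1: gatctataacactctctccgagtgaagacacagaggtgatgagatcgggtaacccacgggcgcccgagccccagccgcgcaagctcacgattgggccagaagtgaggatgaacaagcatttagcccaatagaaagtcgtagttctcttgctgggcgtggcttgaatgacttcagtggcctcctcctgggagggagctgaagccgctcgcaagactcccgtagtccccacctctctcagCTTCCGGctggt
SDHD: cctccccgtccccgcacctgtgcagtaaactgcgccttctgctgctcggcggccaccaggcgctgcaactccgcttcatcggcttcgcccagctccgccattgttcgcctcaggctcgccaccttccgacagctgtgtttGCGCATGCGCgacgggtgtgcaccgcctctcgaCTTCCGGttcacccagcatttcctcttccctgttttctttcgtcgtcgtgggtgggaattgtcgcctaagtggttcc
Members that fell and a member that did not both carry these letters, and a match is a description of the sequence only.

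Between the untreated lines, members were called at shares near those of all tested genes. MKN1 untreated against AGS untreated gave 15 of 44 members lower (34.1%) and 12 higher (27.3%; edgeR, adjusted p below 0.05), where 31.4% of all tested genes were lower and 34.9% higher. The mitochondrial members leaned to lower levels in MKN1: MT-CO1, MT-CO2, MT-CO3, MT-ATP6 and MT-ATP8 were lower, with log2 fold changes between -0.88 and -0.41. MT-CYB alone did not pass (-0.03, adjusted p = 0.873, edgeR). Of the 38 nuclear members 10 were lower (26.3%) and 12 higher (31.6%). Without untreated MKN1 replicate 3, the library that stood apart, 11 members were lower and 10 higher, beside 30.7% and 34.5% of all tested genes. In that fit MT-CO2 (adjusted p = 0.0659, edgeR), MT-ATP8 (adjusted p = 0.116, edgeR), ATP5F1D, ATP5F1E, ATP5MC1 and COX7C did not pass.

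SDHA was the member most above AGS, with 251 ± 15.9 CPM in untreated MKN1 and 109.7 ± 0.62 CPM in untreated AGS cells (SD, n = 3 each; log2 fold change 1.19 ± 0.10 (SE)). UQCRH, the hinge protein, had 290.0 ± 38.0 CPM in untreated MKN1 and 133 ± 10.1 CPM in untreated AGS cells, and CYC1 had 172 ± 22.6 CPM in untreated MKN1 and 86.1 ± 8.66 CPM in untreated AGS cells (SD, n = 3 each). UQCR10 was lower, at 18.6 ± 2.70 CPM in untreated MKN1 and 40.8 ± 2.33 CPM in untreated AGS cells (-1.13 ± 0.15 log2 units (SE)). COX5A was lower as well (-0.85 ± 0.14 log2 units (SE)), while COX5B was higher (0.55 ± 0.13). Subunits of one complex thus went both ways. Line and any difference of handling between the lines cannot be told apart.

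**Figure D4:**
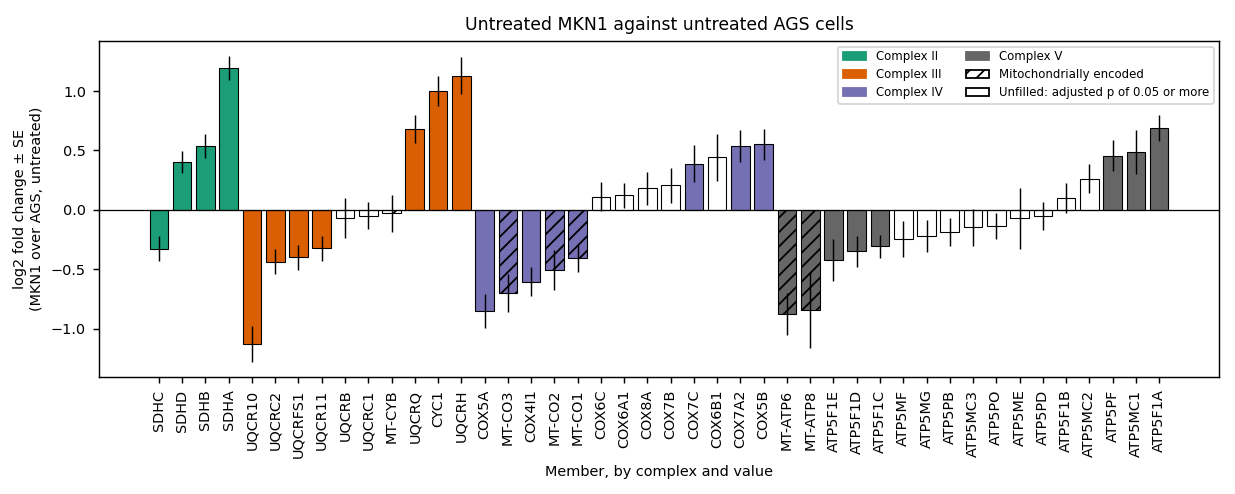
Log2 fold change with SE of the 44 members (x axis) in untreated MKN1 over untreated AGS cells (y axis), grouped by complex and ordered by value. Filled bars passed an adjusted p of 0.05, 15 lower and 12 higher; hatched bars are mitochondrially encoded.

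The other genes of the pathway were read from lists by role. The shares of all tested genes to set beside their counts are 11.6% lower and 9.21% higher in AGS. In MKN1 they are 3.9% and 2.8%. Of 8 tested further subunits and isoforms of complexes IV and V, 3 fell and 0 rose in AGS: ATP5MK, a small subunit of ATP synthase, had 45.5 ± 3.20 CPM in treated and 73.5 ± 2.85 CPM in untreated cells (SD, n = 3 each; edgeR, adjusted p = 0.00623). NDUFA4, a subunit of complex IV by later assignment, and ATP5MJ fell by log2 fold changes of -0.58 and -0.51. In MKN1 0 of 8 were called. The effect on ATP5MK differed between the lines (difference 0.68 log2 units, edgeR, adjusted p = 0.0393), a call made in 12 of 23 fits.

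Of the 37 tested assembly factors of complexes II to V, 6 fell (16.2%) and 5 rose (13.5%) in AGS, near the 11.6% and 9.21% of all tested genes. TTC19, which helps complex III mature, had 76.4 ± 3.72 CPM in treated and 43.0 ± 0.676 CPM in untreated AGS cells (SD, n = 3 each), and rose (0.83 ± 0.10, adjusted p = 0.000377, edgeR). Levels in MKN1 came to 35.4 ± 2.69 CPM in treated and 47.8 ± 4.24 CPM in untreated cells, and it fell (-0.43 ± 0.10, adjusted p = 0.0262, edgeR; past the threshold in 19 of 24 fits). The effects differed between the lines (MKN1 minus AGS -1.26 log2 units, adjusted p = 0.000265, edgeR). Of 6 complex III factors, 1 fell in AGS (UQCC3, -0.80) and 2 rose (TTC19 and LYRM7, 0.74). Of the 4 complex II factors, SDHAF2, which adds the flavin to SDHA, fell in AGS (-0.66, adjusted p = 0.00179, edgeR) and SDHAF4 rose (0.62). Of 22 tested complex IV factors, 4 fell (COX14, COX17, COA3 and CMC2) and 2 rose in AGS (COA5 0.76 and CMC1 0.76), and in MKN1 1 fell (SURF1, -0.49, past the threshold in 11 of 24 fits). None of the 5 complex V factors passed in either line.

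Among mobile electron carriers and coenzyme Q genes, 14 were tested. In AGS COQ4 rose (0.45) and PDSS2 fell (-0.46), and in MKN1 COQ9 fell (-0.52 ± 0.11, adjusted p = 0.0167, edgeR). Of 13 citric acid cycle enzymes, 2 fell in AGS, OGDH (-0.54) and CS (-0.40), and 2 rose, SUCLG2 (0.34) and DLD (0.36), while 0 passed in MKN1. Of the 25 genes for replication, transcription and processing of mitochondrial DNA and RNA, 2 fell (FASTKD5 and ELAC2) and 2 rose (POLG2 and TFB1M) in AGS. The smallest adjusted p-values were those of FASTKD5, an RNA-binding protein of mitochondrial transcripts (-0.74, adjusted p = 0.00115), and POLG2, an accessory subunit of the mitochondrial DNA polymerase (0.86, adjusted p = 0.00394, edgeR). ATP5MJ, LYRM7, COX14, COX17, COA3, CMC2, CS, DLD, ELAC2 and TFB1M are named after their values were seen, to complete these counts. In MKN1 TOP1MT, the mitochondrial topoisomerase, rose (0.51, adjusted p = 0.0277, edgeR).

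The 8 transcriptional regulators of mitochondrial biogenesis gave 1 lower and 1 higher in AGS and 0 in MKN1. NRF1, a transcription factor of respiratory genes, had 15.5 ± 0.723 CPM in treated and 23.1 ± 1.31 CPM in untreated AGS cells, and fell (-0.58 ± 0.13, adjusted p = 0.0109, edgeR). PPARGC1B, a coactivator of these genes, had 7.26 ± 1.33 CPM in treated and 4.05 ± 0.232 CPM in untreated AGS cells, and rose (0.84 ± 0.27, adjusted p = 0.0431, edgeR). The others in AGS, PPARGC1A, PPRC1, GABPA, GABPB1, ESRRA and YY1, had log2 fold changes between -0.35 and 0.09. In MKN1 the 8 had log2 fold changes between -0.55 and 0.84, none past the threshold.

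Mitochondrial rRNAs were read beside the members, and the large one rose in AGS and fell in MKN1. MT-RNR2, the large rRNA, had 13970.2 ± 1101 CPM in treated and 10967 ± 637 CPM in untreated AGS cells (SD, n = 3 each), and rose (0.35 ± 0.10, adjusted p = 0.0257, edgeR). In MKN1 it had 6854 ± 394 CPM in treated and 10178 ± 320.2 CPM in untreated cells, and fell (-0.57 ± 0.10, adjusted p = 0.00763, edgeR). The difference between the effects was -0.92 log2 units (edgeR, adjusted p = 0.00143). Without untreated MKN1 replicate 3 the MKN1 change was -0.59 (edgeR, adjusted p = 0.00546), and the AGS rise passed in 17 of the 24 fits. MT-RNR1, the small rRNA, fell in MKN1 (-0.62) and did not pass in AGS (0.12). The libraries were made from mRNA, and the sources used here do not say how mRNA was enriched.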

How the data were processed

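mRNA was sequenced in 12 libraries of AGS and MKN1 cells. The authors deposited a table of unnormalized read counts per gene. Reads were aligned with HISAT2 2.0.4 to hg38/GRCh38, per the submitters' processing notes. The sources used here do not state the counting tool, annotation or strand setting; the library kit does not mark strand, so overlapping genes are uncertain. Totals are in the report, and counting error is small at these depths.

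A gene name table gave symbols for 32069 of 32269 identifiers, and GENCODE release 29 (GRCh38) gave positions. Counts were fitted in edgeR 4.0.16 (R 4.3.3) with filterByExpr over the 4 groups (20280 genes), TMM factors and quasi-likelihood tests, with Benjamini-Hochberg adjustment over all tested genes and a threshold of 0.05. CPM are TMM-scaled. The fit had 8 residual degrees of freedom. The script was tested on simulated data. P-values of the fit weigh a group difference against the spread between replicate libraries, estimated over the 4 groups together.

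The members and lists were chosen with earlier results of these data known. Values in every library were given for the mitochondrial members, complex II and, in each other complex, the nuclear members with the smallest adjusted p in each line and for the difference, plus ATP5MC1, ATP5MC2 and ATP5MC3, added for their shared product; from each other list, the 2 smallest adjusted p-values of a line could be named. Alternatives used DESeq2 1.42.0, limma 3.58.1, other factors and filters, and left out each library. The NRF1 motif length was changed after its counts were known.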

Additional observations from a re-analysis of the deposited data

How the results depend on the processing

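No member changed direction under these alternatives in a comparison that it passed. Leaving out 1 library at a time, all genes called ranged from 2051 to 5533 in AGS, 336 to 3160 in MKN1, 2098 to 4646 for the difference and 12432 to 13875 between untreated lines; members lower ranged from 7 to 27 in AGS, 0 to 8 in MKN1, 0 to 1 for the difference and 10 to 15 between untreated lines, and members higher from 0 to 1 in AGS, 0 to 0 in MKN1, 0 to 6 for the difference and 10 to 14 between untreated lines. In AGS, 1 member was called higher under library totals alone, the 5 CPM filter, the contrast's groups alone, DESeq2 and limma voom (MT-CO1). Fitting only the groups of the contrast called 8369 genes in AGS and 34 in MKN1, with 0 members lower in MKN1. Members lower in MKN1 were 1 with upper-quartile factors, 0 with library totals alone, 0 without a filter (809 genes), 8 with GC and length trends removed and 8 with DESeq2 (2416 genes). Over all tested genes the share lower in MKN1 ran in these fits from 1.62% (no filter) to 7.06% (DESeq2). With only the groups of the contrast it was 0.157%. For the difference, members lower and higher were 1 and 0 with DESeq2 size factors, 0 and 3 with library totals, 1 and 1 with the 5 CPM filter, 2 and 4 with GC and length trends removed, 1 and 3 with DESeq2, and 1 and 0 with limma voom. In these fits of the difference, 6.21% to 9.62% of all tested genes were lower and 7.87% to 10.3% higher. With the replicate block, 1 member was lower in MKN1, beside 3.43% of all tested genes. For the difference 1 was lower and 2 higher with that block, beside 7.2% and 8.03%. Deviations of same-numbered treated and untreated libraries correlated at -0.044 to 0.020 in AGS and -0.040 to 0.176 in MKN1. Differently numbered ones correlated at -0.065 to 0.054 in AGS and -0.181 to 0.116 in MKN1. With 3 libraries a group, these values cannot show whether the numbers pair libraries. Values near 0 changed sign, with the range over leaving out 1 library: SDHD in AGS (DESeq2 size factors 0.00060, 5 CPM filter 0.0054; -0.0377 to 0.0085); UQCRC2 in AGS (DESeq2 size factors 0.0075, library totals 0.0041, 5 CPM filter 0.0117; -0.0347 to 0.025); MT-CO3 in AGS (-0.0943 to 0.0439); ATP5MG in MKN1 (library totals 0.0264; -0.2012 to 0.1046); SDHB in MKN1 (library totals 0.052, 5 CPM filter 0.0049; -0.1082 to 0.0423); UQCR11 in MKN1 (-0.0645 to 0.0547); and MT-CYB between untreated lines (DESeq2 size factors 0.0324, upper-quartile factors 0.0479, 5 CPM filter 0.0314, contrast groups alone 0.0251, GC and length removed 0.0116; -0.1267 to 0.0959). The cause was not tested.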
